A study of Homo sapiens with 6 samples.

Results

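The genes described here encode 10 secreted interleukins and colony-stimulating factors (IL6, LIF, IL11, IL7, IL15, IL32, IL34, CSF1, CSF2 and CSF3). They were taken by symbol from the 61541 genes in the deposited count tables, and all 10 were found. Their RNA was read in RCC4, an established human line of clear cell renal carcinoma known to lack functional VHL. The untreated group was 3 cultures of RCC4 with no cytokine added, and the treated group was 3 cultures of the same line kept for 24 h with interferon gamma (IFNγ, 1000 U/mL) and tumour necrosis factor (TNF, 25 ng/mL). Each biological replicate came from 3 flasks. Native poly(A) RNA was passed through nanopores without copying or amplification, with a separate flow cell per library. Both cytokines were given together, so their separate parts cannot be told apart.

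Interleukins and colony-stimulating factors are small secreted proteins that act on neighbouring cells through surface receptors, most of which signal through Janus kinases (JAK) and STAT transcription factors. IL-6, LIF and IL-11 share the receptor chain gp130, encoded by IL6ST. IL-7 and IL-15 use the common gamma chain, encoded by IL2RG. M-CSF (CSF1) and IL-34 are both ligands of the receptor CSF1R on macrophages, whereas GM-CSF (CSF2) and G-CSF (CSF3) act on granulocytes and their precursors. Tumour epithelium is a known source of several of these proteins, and NF-kappaB, which TNF activates, is a known regulator of the IL6 gene.

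Promoter sequence is shown so that the motifs of factors known to act downstream of TNF and IFNγ can be seen beside the values of each gene. The RefSeq promoter table (GRCh38.p14) held 4 of the 10 genes, namely IL6, IL11, IL32 and CSF2. Each stretch below runs 5′ to 3′ on the gene's strand and lies within the 250 bases before a RefSeq start site, and bases in exons of the count annotation were taken off. The IL6 stretch lies inside the annotated gene, between exons of its longer transcripts, and the stretches of CSF2 and IL11 end just before the annotated gene begins. Capitals mark a match to the kappaB consensus in IL6, to the gamma-activated sequence in CSF2 and to the AP-1 motif in IL11.
IL6, chr7:22726950-22727146, plus strand: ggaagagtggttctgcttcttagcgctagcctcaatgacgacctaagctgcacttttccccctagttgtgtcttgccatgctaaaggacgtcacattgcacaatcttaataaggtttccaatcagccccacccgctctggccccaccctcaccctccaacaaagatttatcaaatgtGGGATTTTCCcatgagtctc
CSF2, chr5:132073539-132073788, plus strand: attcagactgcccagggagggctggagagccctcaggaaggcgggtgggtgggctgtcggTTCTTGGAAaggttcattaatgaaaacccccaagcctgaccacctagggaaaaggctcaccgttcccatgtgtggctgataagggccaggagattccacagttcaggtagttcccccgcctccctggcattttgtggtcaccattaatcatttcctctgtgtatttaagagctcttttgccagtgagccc
IL11, chr19:55370464-55370713, minus strand: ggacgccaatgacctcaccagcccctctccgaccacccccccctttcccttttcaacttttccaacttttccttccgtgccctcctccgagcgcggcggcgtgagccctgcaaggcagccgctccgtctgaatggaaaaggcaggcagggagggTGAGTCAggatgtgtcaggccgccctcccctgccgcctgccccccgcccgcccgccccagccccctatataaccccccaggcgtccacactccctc

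Motifs were searched on both strands of the 250 bases before each start site. The kappaB consensus was found in 9.96% of the 35116 promoters in the table. IL6 held 1 match, ending 64 bases before its start site. IL32 held 2 matches before its first listed start site, GGGAGTTTCC and the same stretch shifted by 1 base on the other strand, inside an exon of the count annotation. CSF2 and IL11 held none. A looser form, GGG and CC with any 5 bases between them, includes every consensus match and was present in 54.4% of promoters. It matched IL6, IL32 and CSF2, but not IL11. The AP-1 motif TGANTCA was present in 6.57% of promoters and in IL11, and the gamma-activated sequence TTCNNNGAA in 6.57% and in CSF2. The interferon-stimulated element, searched as GAAA repeated after any 2 bases, was in 3.02% of promoters and matched none of these 4 genes. Such matches describe the letters in a window and do not show that a factor bound there.

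Library totals ran from 3626000 to 4406296 counts, and levels are given as CPM, read counts scaled to a common library size after TMM normalisation, which adjusts for composition. A gene without reads could still have up to 3 counts, or 0.681 to 0.827 CPM of the library totals, counting error only. All 10 renal carcinoma markers were detected. Of 10 leukocyte markers 9 had 3 counts or fewer in every library, and PTPRC, CD3E and LYZ had 0. The exception was CSF1R, which is described below among the receptors. Of 10 fibroblast and endothelial markers 9 had 0 counts in every library, and the exception was COL1A1.

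Exposure to IFNγ and TNF was accompanied by higher RNA of CSF1, IL32 and IL6, by 11.1, 8.67 and 4.21 times the untreated mean. LIF, IL11, IL15 and CSF2 did not pass the test, and CSF3, IL34 and IL7 were at or near 0 throughout. In cultures measured in bulk, more cells making an RNA and more RNA per cell cannot be told apart. Of the 10 genes 7 were abundant enough to be tested. By edgeR's quasi-likelihood test with an adjusted p below 0.05, 3 of the 10 genes were called, against 8.14% of all 10067 tested genes. These 3 were all higher in treated cells, where 5.58% of tested genes were. None was lower, where 2.55% of tested genes were. At an unadjusted p under 0.05 in edgeR 1 gene was lower and 5 were higher. DESeq2 called 4 higher and 0 lower, and limma voom 3 and 0. Groups did not overlap in CPM, with treated cells higher, for 5 of the 10 genes and for 13.9% of tested genes, and with treated cells lower for 0 of the 10 and 12% of tested genes. The 5 were CSF1, IL32, IL6, IL15 and CSF2, all among the 7 tested. CSF2, which DESeq2 also called, entered the test only through its treated libraries. Over all genes the median log2 fold change was -0.03, and with library totals alone it was -0.13. The calls over all genes were 562 higher and 257 lower, and with library totals alone 485 and 364.

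**Figure D1:**
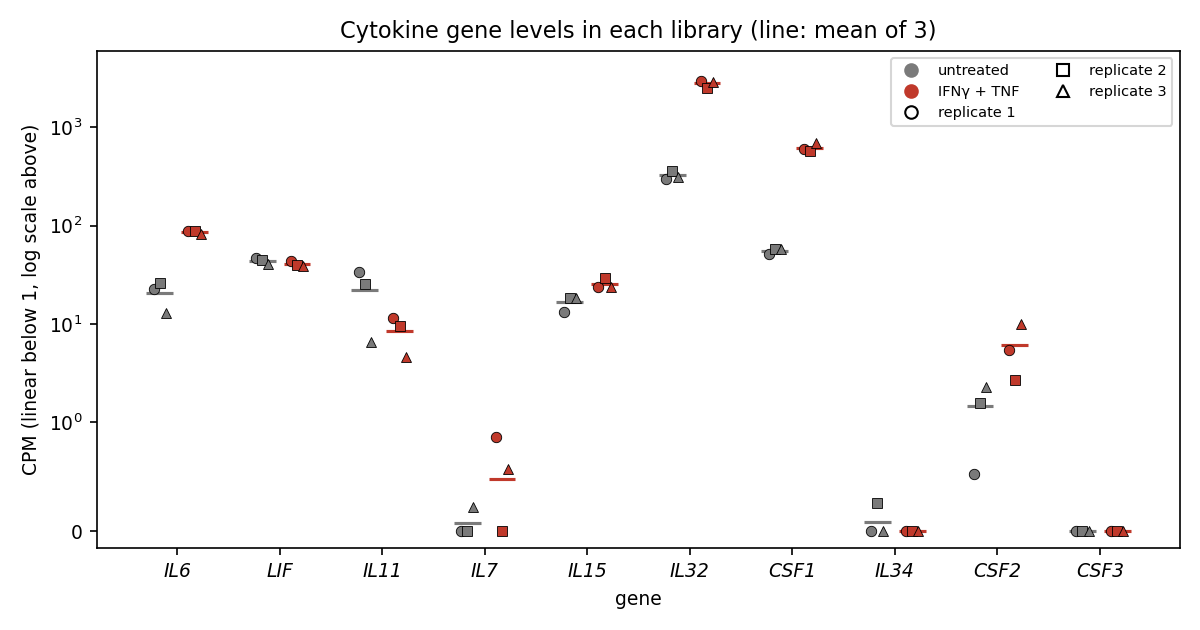
CPM of the 10 genes (y axis, linear below 1 and logarithmic above) in the 3 untreated (grey) and 3 treated (red) libraries, with symbols for replicate numbers and a line at each mean. CSF1, IL32, IL6, IL15 and CSF2 lie apart between groups, though IL15 and CSF2 did not pass the test. LIF overlaps, and CSF3 is at 0 in all 6 libraries.

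CSF1 encodes macrophage colony-stimulating factor, which sustains monocytes and macrophages (ENSG00000184371; chromosome 1, 109910242 to 109930992, plus strand). Untreated replicates 1, 2 and 3 had 51.3, 58.2 and 57.6 CPM, from 196, 225 and 253 counts. Treated replicates 1, 2 and 3 had 600.1, 568.3 and 691.7 CPM, from 2078, 2518 and 2425 counts. The groups lay far apart and replicates within each were close. The mean went from 55.7 ± 3.81 to 620.0 ± 64.0 CPM (SD, n = 3 each), and edgeR put the log2 fold change at 3.48 ± 0.18 (SE, adjusted p 6.44e-06). Of all tested genes 98.7% had a smaller log2 fold change.

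IL34, the other ligand of CSF1R (ENSG00000157368; chromosome 16, 70579895 to 70660682, plus strand), had 1 count in untreated replicate 2 and 0 in the other 5 libraries. The 2 genes thus stood far apart in both groups, with almost every read of the pair from CSF1. Because IL34 was at the limit of detection, no fold between the groups was computed for it.

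IL32 encodes interleukin-32, a cytokine of primates and other mammals but not of rodents, known for inducing TNF and other inflammatory genes (ENSG00000008517; chromosome 16, 3065297 to 3082192, plus strand). It had 300.3, 361.4 and 309.3 CPM in untreated replicates 1, 2 and 3, and 2977, 2537 and 2907 CPM in treated replicates 1, 2 and 3. Every treated library was above every untreated one. The mean went from 324 ± 33.0 to 2807 ± 236 CPM (SD, n = 3 each), which on the log2 scale was a rise of 3.12 ± 0.17 (SE, edgeR adjusted p 7.75e-06). An annotated small RNA pseudogene, RNU1-125P, covers 12.9% of the last 1000 exonic bases of IL32 on the same strand. Reads that touch both genes may be missing from its counts in all 6 libraries.

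Per kilobase of exon, IL32 ranked 520th of 17533 genes with any signal in untreated cells and 85th of 17319 in treated cells. The 10 genes together took 0.0499% ± 0.0037 of the reads without cytokines and 0.345% ± 0.0174 with them (SD, n = 3 each). Within that sum the share of IL32 was 66.8% ± 2.57 in untreated and 78.1% ± 1.16 in treated libraries. CSF1 held 11.6% ± 1.16 and 17.3% ± 1.21, and the other 8 genes together 21.6% ± 3.45 and 4.67% ± 0.404.

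IL6 encodes interleukin-6, an inducer of the acute phase response (ENSG00000136244; chromosome 7, 22725884 to 22732002, plus strand), and its kappaB match is shown above. Untreated replicates 1, 2 and 3 had 22.5, 25.9 and 13.0 CPM, from 86, 100 and 57 counts. Treated replicates 1, 2 and 3 had 88.4, 87.3 and 82.4 CPM, from 306, 387 and 289 counts. Treated libraries were nearly level with each other, and untreated replicate 3 was the lowest of all 6. The mean went from 20.5 ± 6.68 to 86.0 ± 3.18 CPM (SD, n = 3 each), or by 2.08 ± 0.26 on the log2 scale (SE, edgeR adjusted p 0.00126). Its log2 fold change was 1.82 without untreated replicate 3, still past the threshold.

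LIF, leukaemia inhibitory factor, shares gp130 with IL-6 and is best known for maintaining stem cells (ENSG00000128342; chromosome 22, 30240453 to 30246759, minus strand). It had 47.1, 44.2 and 40.5 CPM in untreated replicates 1, 2 and 3 and 43.9, 39.7 and 38.8 CPM in treated replicates 1, 2 and 3. The groups overlapped. Its log2 fold change of -0.11 was smaller than its SE of 0.18 (edgeR adjusted p 0.848).

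IL11 encodes interleukin-11, a gp130 cytokine studied in fibrosis and platelet formation (ENSG00000095752; chromosome 19, 55364382 to 55370463, minus strand). It had 33.8, 25.6 and 6.60 CPM in untreated replicates 1, 2 and 3, and 11.6, 9.48 and 4.56 CPM in treated replicates 1, 2 and 3. Replicate 3 was the lowest library in each group, and untreated replicate 3 lay among the treated libraries. Its log2 fold change, -1.35 ± 0.56 (SE), did not pass the threshold (edgeR adjusted p 0.215). Without untreated replicate 3 it was -1.80, with an adjusted p of 0.00392, and over 14 alternatives the adjusted p ran from 0.00174 to 0.538. With the replicate number as a block it was 0.00176. Untreated replicate 3 also had the highest count-weighted exonic gene length, 4484 bases, against 4204 to 4376 bases in the other 5 libraries, and the part of this in the IL11 values was not tested.

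Ratios of counts within a library do not depend on the scaling between libraries. The log2 ratio of IL6 to LIF was -1.06, -0.77 and -1.63 in untreated and 1.01, 1.13 and 1.08 in treated replicates 1, 2 and 3. LIF thus gave more reads than IL6 in each untreated library and fewer in each treated one. The difference was 2.23 on the log2 scale. The log2 ratio of IL6 to IL11 was -0.58, 0.01 and 0.96 in untreated and 2.92, 3.19 and 4.13 in treated replicates 1, 2 and 3, a difference of 3.28. Exact permutation of the library labels (2-sided) returned p = 0.1 for both, the lowest p this number of libraries can reach, and 0.133 once adjusted over 4 pairs (Benjamini-Hochberg).

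**Figure D2:**
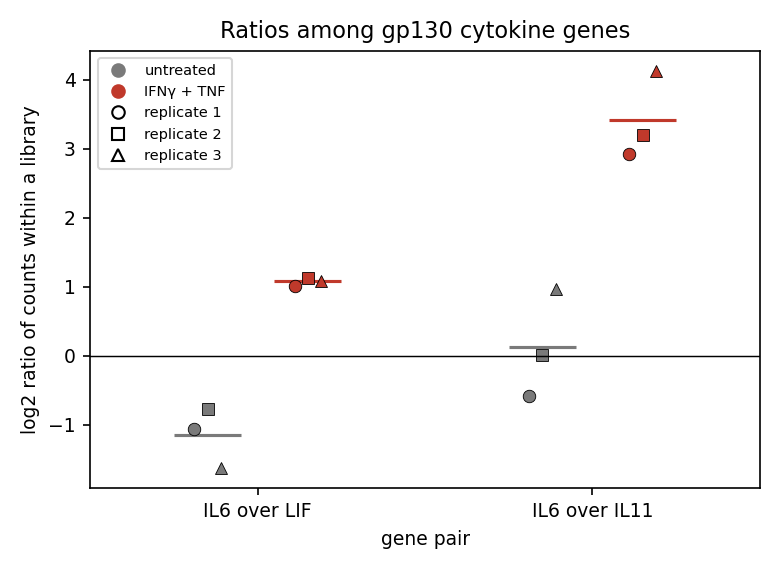
Log2 ratio of read counts within each library (y axis, 0.5 added to each count) for IL6 over LIF and IL6 over IL11, untreated in grey and treated in red, with a line at each mean of 3. The IL6 over LIF ratio is below 0 in all 3 untreated libraries and above 0 in all 3 treated ones.

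IL15 encodes interleukin-15, which sustains natural killer cells and memory T cells (ENSG00000164136; chromosome 4, 141636583 to 141733987, plus strand). It had 13.4, 18.4 and 18.4 CPM in untreated and 24.0, 29.1 and 24.0 CPM in treated replicates 1, 2 and 3. All treated values were above all untreated ones, but the difference did not pass the threshold. Its log2 fold change was 0.62 ± 0.23 (SE), and the edgeR adjusted p of 0.168 ranged from 0.0843 to 0.406 over 14 alternatives. IL7, a growth factor for lymphocytes (ENSG00000104432; chromosome 8, 78675743 to 78805523, minus strand), gave 0, 0 and 1 reads in the untreated libraries and 3, 0 and 2 in the treated ones. No difference in IL7 was detectable at this depth.

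CSF2 encodes GM-CSF (ENSG00000164400; chromosome 5, 132073789 to 132076170, plus strand). It had 2, 6 and 10 counts in untreated replicates 1, 2 and 3 and 19, 12 and 35 in treated replicates 1, 2 and 3. In CPM these were 0.524, 1.55 and 2.28 against 5.49, 2.71 and 9.98. The groups did not overlap, though the highest untreated and the lowest treated libraries were close. The gene entered the test through its treated libraries. Its log2 fold change was 2.00 ± 0.62 (SE, edgeR adjusted p 0.0933). That p passed the threshold without untreated replicate 3 (0.0408) and in DESeq2 (0.0494), and ran from 0.00249 to 0.378 over 14 alternatives. It was 0.00461 with the replicate number as a block. CSF3, which encodes G-CSF (ENSG00000108342; chromosome 17, 40015361 to 40017813, plus strand), had 0 counts in all 6 libraries.

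**Figure D3:**
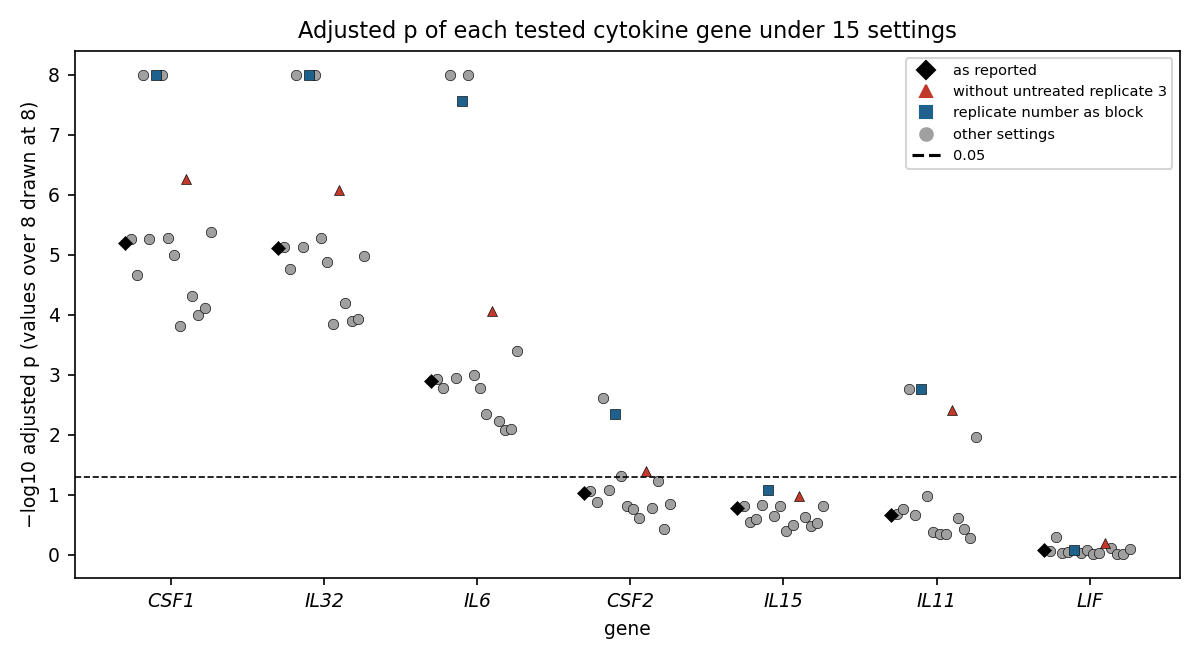
Adjusted p (y axis, −log10, values above 8 drawn at 8) of the 7 tested genes as reported (black diamonds), without untreated replicate 3 (red triangles), with the replicate number as a block (blue squares) and under the other settings (grey). CSF1, IL32 and IL6 lie above the dashed line at 0.05 in all settings, CSF2 and IL11 on both sides of it, and IL15 and LIF below it.

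Shares and ratios above are of reads, whereas the order of levels below is per kilobase of exon. In untreated cells IL32 led with 101 ± 10.3 CPM per kilobase (SD, n = 3). LIF, CSF1, IL6 and IL11 followed with means from 11.4 to 8.21, and the ranges of each neighbouring pair among these overlapped. IL15 and CSF2 came next at 2.12 and 1.84 CPM per kilobase, also with overlapping ranges. In treated cells the order was IL32 with 875 ± 73.6, CSF1 with 118 ± 12.2 and IL6 with 41.6 ± 1.54 CPM per kilobase. These 3 lay apart from each other and from LIF, which had 10.5 ± 0.703. CSF2, IL15 and IL11 followed with means of 7.69, 3.26 and 3.19, and from LIF downwards neighbouring ranges overlapped as far as IL11. A nanopore read covers up to a whole molecule, so a level per kilobase of exon can understate long genes. Without the division by length, treated IL15 had a higher mean than CSF2 (25.7 against 6.06 CPM). Untreated CSF1 was then above LIF (55.7 against 44.0 CPM), and the untreated means of IL11 and IL6 were 22.0 and 20.5 CPM. IL32, CSF1 and IL6 led the treated order on both scales.

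Most receptor chains of these cytokines were sparse, and IL15RA and IL7R rose. Of 16 genes, 6 were tested, with 2 called higher and 1 lower in edgeR, and 2 higher and 0 lower in both DESeq2 and limma voom. A further 8 had 3 counts or fewer in every library. Over all tested genes edgeR called 5.58% higher and 2.55% lower. IL15RA, which binds IL-15 and presents it to neighbouring cells, had 7.86, 8.53 and 6.38 CPM in untreated and 77.4, 67.0 and 103 CPM in treated replicates 1, 2 and 3. The groups lay far apart, and its rise of 3.44 ± 0.25 (SE, log2 scale) had an edgeR adjusted p of 4.39e-05. Exons of another gene cover 15.1% of the last 1000 exonic bases of IL15RA on the same strand. Reads that touch both genes may be missing from its counts. IL7R, the alpha chain of the IL-7 receptor, rose from 6.73 ± 2.22 to 37.8 ± 13.2 CPM (SD, n = 3 each), that is by 2.48 ± 0.37 on the log2 scale (SE, edgeR adjusted p 0.00323).

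IL2RB and IL2RG, the shared chains that complete the IL-15 receptor, had 0 counts in all 6 libraries. Exons of another gene cover 50.8% of the exonic bases of IL2RG on the same strand and 0 of those of IL2RB, and reads shared by 2 genes may be uncounted. CSF1R, the receptor of CSF1 and IL34, gave 22, 21 and 13 reads in untreated replicates 1, 2 and 3 against 5, 5 and 4 in treated replicates 1, 2 and 3. It fell by 1.90 on the log2 scale (SE 0.45, edgeR adjusted p 0.0314), with all treated values below all untreated ones. It entered the test only through its untreated libraries, the group where it was higher. Over the whole leukocyte list, of which CSF1R is a member, summed counts were 13 to 23 in untreated and 5 to 8 in treated libraries. Most of these reads in every library were those of CSF1R itself, so the sum is not a separate observation. The CSF1R call did not hold in 7 of 14 alternatives, among them DESeq2 (0.0619), limma voom (0.0606) and the fit without any 1 library other than untreated replicate 3 (0.0885 to 0.145).

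For gp130 itself, IL6ST gave 3, 9 and 43 reads in untreated replicates 1, 2 and 3 against 6, 34 and 16 in treated replicates 1, 2 and 3, a spread that left its log2 fold change of 0.11 with an SE of 0.79. Untreated replicate 3 was the highest of the 6. The partner chains IL6R and LIFR did not enter the test. IL6R gave 8, 2 and 15 reads in untreated and 4, 7 and 5 in treated replicates 1, 2 and 3. LIFR gave 0, 3 and 1 against 5, 4 and 4, higher in every treated library but sparse. OSMR, also in the receptor list, joins gp130 to bind oncostatin M, not IL-6, LIF or IL-11. Its log2 fold change was 0.09 (SE 0.31). That of SDC1, a proteoglycan that also binds IL-34, was -0.55 (SE 0.21). SDC1 was the most abundant gene of the receptor list, with means of 207 CPM in untreated and 141 CPM in treated libraries. Neither OSMR nor SDC1 passed the threshold (edgeR adjusted p 0.931 and 0.185). CSF3R, PTPRZ1 and IL11RA had 0 counts, and exons of another gene cover 43.9% of the last 1000 exonic bases of IL11RA.

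**Figure D4:**
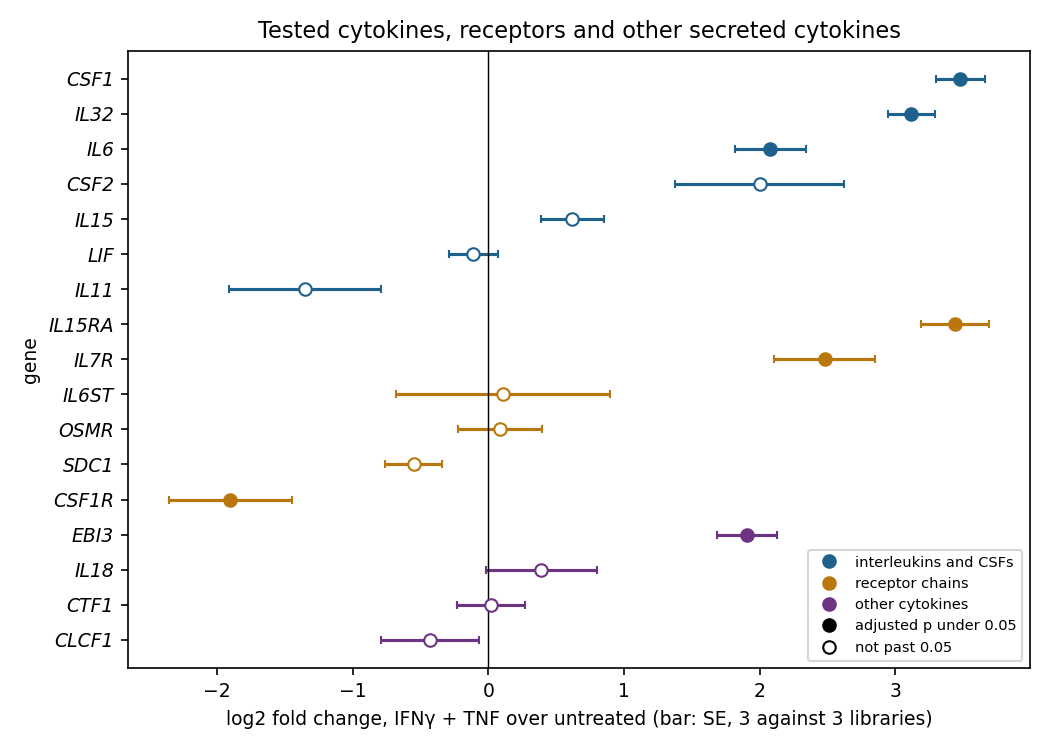
Log2 fold change of treated over untreated cells (x axis) with its SE for the tested interleukins and colony-stimulating factors (blue), receptor chains (ochre) and other secreted cytokines (purple), filled where the adjusted p was under 0.05. CSF1 and IL15RA lie near 3.5, and CSF1R is the filled point below 0.

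Among 47 other secreted cytokine genes, 27 had 0 counts in every library and 38 had 3 or fewer. Only 4 were tested, of which 1 was called higher and 0 lower in edgeR, where 5.58% and 2.55% of all tested genes were. The count of lower genes was also 0 at an unadjusted p under 0.05, in DESeq2 and in limma voom. EBI3, a subunit of the heterodimers IL-27 and IL-35, had 33.5, 37.5 and 42.8 CPM in untreated and 131, 119 and 177 CPM in treated replicates 1, 2 and 3. It rose by 1.91 on the log2 scale (SE 0.22, edgeR adjusted p 0.000654). Its partners were scarce, with 0 to 2 counts of IL27 and 1 to 6 counts of IL12A per library. TNF had 0 to 4 counts per library, and IFNG had 0. KITLG, a growth factor named after its values were seen, gave 9, 21 and 13 reads in the untreated libraries and 2, 6 and 3 in the treated ones and did not enter the test. LTB, named likewise and also untested, went the other way, with 1, 3 and 5 reads against 9, 11 and 12. Groups lay apart with treated cells higher for 4 of the 47 genes and lower for 1, beside 13.9% and 12% of tested genes. EBI3 alone among these was tested. The 27 genes at 0 counts could not lie apart, so these counts and the shares of tested genes are not alike.

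Of 27 genes of JAK-STAT signalling, 22 were tested, with 8 called higher and 1 lower, where 5.58% and 2.55% of all tested genes were. The median log2 fold change of the 22 was 0.61, beside -0.03 over all tested genes. Among negative regulators, SOCS1 rose from 4.25 ± 2.10 to 150 ± 25.1 CPM and SOCS3 from 9.16 ± 2.71 to 136 ± 28.7 CPM (SD, n = 3 each), or by 5.15 and 3.89 on the log2 scale. CISH had a log2 fold change of 1.23, with an edgeR adjusted p of 0.037 that ran from 0.00763 to 0.149 over 14 alternatives and passed the threshold in 7 of these. It was not past it without any 1 library other than untreated replicate 3. SOCS2 went the other way, from 28.7 ± 3.54 to 9.58 ± 2.07 CPM, or -1.57 ± 0.25 (SE) on the log2 scale. The transcription factor STAT3 rose by 1.17 on the log2 scale, and JUNB and BCL3, also regulators of transcription, by 2.49 and 1.44. The edgeR adjusted p of the genes named here other than CISH ran from 3.84e-05 for SOCS1 to 0.00487 for SOCS2.

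Genes with the most similar profile were sought over the 6 libraries among the 6761 genes that averaged 10 CPM or more, by Pearson's r of log2 CPM. All points come from the same 6 libraries. For IL6 the nearest were NFKBIA, DNPEP and TRAF1 (r = 0.998 each), with 207 genes above an r of 0.95. For IL32 they were PRKCQ-AS1, HLA-F and CCL2, and for CSF1 SLC15A3, PRKCQ-AS1 and TEX29, each at r = 0.999. These 5 genes had untreated means below 10 CPM, with SLC15A3 and TEX29 at 0 and CCL2 at 4.09, and passed the minimum only through the treated libraries. An r near 1 then follows largely from the gap between the groups. As many as 282 genes reached an r above 0.95 with IL32 and 285 with CSF1, so these names are the top of a long list. LIF, which ran only from 38.8 to 47.1 CPM, was nearest to DFFA, NDUFA2 and UBAP2L (r from 0.995 to 0.996), with 109 genes above 0.95. IL11 was nearest to GLRX5, TIMM23 and FBXO22 (r from 0.997 to 0.998), with 137 genes above 0.95. IL15 was nearest to ARPC3, INHBA and POMP (r from 0.978 to 0.988), and 13 genes were above 0.95.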

How the data were processed

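Poly(A) RNA (500 ng) was sequenced directly for 72 h per library, and reads with a quality above 7 were kept, per the labels' protocols. The authors deposited raw read counts for each gene, made with featureCounts v2.0.1 in long-read, strand-specific mode on exons of Ensembl release 105 (GRCh38), per the file headers. The submitters' processing notes name minimap2 2.24, SAMtools 1.16 and featureCounts 2.0.0. By its defaults a read touching exons of more than 1 gene is left uncounted. Alignment names in the headers carry the word dmso, and groups were taken from the sample titles. Symbols were matched for 61369 of 61541 identifiers.

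Counts were tested with edgeR 4.0.16 in R 4.3.3 (quasi-likelihood F test, TMM, filterByExpr, group as the sole term, Benjamini-Hochberg over 10067 genes, threshold 0.05). Each SE was obtained from the log2 fold change and its F statistic (size over root F). Ratios used 0.5 added to each count. The edgeR, DESeq2 and limma voom fits were tried on simulated counts, edgeR with a minimum of 1 count per gene in place of filterByExpr. No replicate pair was within sampling noise (chi-square 3.48 to 24.7 per degree of freedom), so all 6 libraries were counted. The highest values, 24.7 and 21.5, were those of untreated replicate 3 against untreated replicates 1 and 2. The lowest was between untreated replicates 1 and 2.

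All members and lists were chosen with earlier results of these data known. All 10 genes were named, with up to 8 genes past the threshold per list (by absolute log2 fold change) and the 3 most similar genes per member at a mean of at least 10 CPM. A signalling gene that this rule names is not reported here. Receptors at 0 counts and genes described beside a member were named after their values were seen. Alternatives were DESeq2 size factors, library totals, 2 filters, the replicate block, DESeq2 1.42.0, limma 3.58.1 voom and leaving out libraries. Leaving out replicate 3 of both groups was added after the data were examined.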

Additional observations from a re-analysis of the deposited data

How the results depend on the processing

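Of the 10 genes, CSF1, IL32 and IL6 were called higher in all 14 alternatives. Their log2 fold changes ran from 3.37 to 3.59, from 3.01 to 3.23 and from 1.82 to 2.28. LIF and IL15 were called in none of the 14. The number called went from 3 to 5 with a minimum of 1 count per gene and also with the replicate number as a block (4 higher and 1 lower in each), the additions being CSF2 and IL11. Leaving out libraries gave between 3 and 5. Among other cytokines 2 were called with that minimum (1 higher and 1 lower), against 1. Over all genes the count was 819, and it was 1328 with that minimum and 1513 with the replicate block. It was between 455 and 1178 without 1 library or replicate 3 of both groups. The count was 455 without treated replicate 3, 465 without untreated replicate 2 and 1178 without untreated replicate 3. The cause of these changes was not tested.

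The IL15 to IL7 ratio, with IL7 at 3 counts or fewer, differed by -0.65 and by -1.71 to 0.01 without 1 library (0.01 without treated replicate 1). The IL6 to LIF and IL6 to IL11 differences kept their sign, from 1.99 to 2.42 and from 2.92 to 3.70.

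Deviations from group means correlated at 0.651, -0.0037 and 0.374 between same-numbered libraries over 10067 genes. Untreated replicate 2 correlated best with treated replicate 1 (0.249), and untreated replicate 3 with treated replicate 2 (0.413). These values do not settle whether replicate numbers pair the libraries. The main fit left the number out, and results with it as a block are given above. Depth limits IL7, IL34 and CSF3.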
